A study of Mus musculus with 4 samples.

Results

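Lipid-associated macrophages are macrophages of fat-laden tissue that take up and break down lipid, and the 10 genes described here, Trem2, Gpnmb, Cd9, Cd63, Spp1, Lpl, Mmp12, Fabp5, Lgals3 and Itgax, are genes by which such cells are commonly recognised. The list was chosen with earlier results of these data known, so the counts below describe it and are no test of a list fixed beforehand. Each gene was found on the arrays by matching the transcript accession of a probe to the gene symbol. All 10 had a probe, out of 23458 genes with a probe, and together they had 16 probes.

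Total liver RNA was measured on 4 one-colour Agilent arrays of 1 slide, and each array held 1 combination of genotype and diet. All mice were male, 24 weeks old and of a C57BL/6 background, and had eaten chow (CE2) or a high fat diet (HFD, HFD-60) for 18 weeks from 6 weeks of age. Control mice carried floxed alleles of Lpiat1, also called Mboat7, without Cre (F/F), and knockout mice (LKO) had the genotype Alb-Cre; Lpiat1F/F. There the albumin promoter drives Cre in hepatocytes, and the paper describes the knockout as specific to these cells. The arrays do not measure Mboat7 by cell type. Neither labels nor methods state if an array held RNA of a single mouse or a pool, and with 1 array per condition no difference below has a replicate check or a test.

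In obese animals these macrophages gather around enlarged fat cells and, in the liver, around hepatocytes filled with fat. Many of them derive from blood monocytes rather than from resident Kupffer cells. The receptor TREM2 senses lipids and lipoproteins, and the lysosomes of the cell then digest what has been engulfed.

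Levels are given as relative signal, the background-subtracted signal of a probe divided by the 75th percentile of all spots that are not controls on the same array, so that 1 equals that percentile. A difference is the log2 of the ratio of the relative signals on 2 arrays, and a gene counts as higher or lower when that ratio passes 2-fold. Where a gene has several probes, the brightest over the 4 arrays stands for it. Probes differ in brightness for the same amount of RNA, so a signal does not rank genes by abundance, and a summed signal of a list is weighted to its brightest probes. The scanner software marks which signals lie well above background, and a dim signal without that mark gives a bound. The fold is then written as "at least" and sets the bright signal against the higher of the dim signal and the lowest marked signal on the dim array. On each array 53.0% to 57.0% of the spots were well above background and 0 were saturated. The difference of 2 replicate spots of 1 probe on 1 array had an SD of 0.10 (log2), called spot spread below, which holds neither the differences between mice nor those between extractions.

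The targeted gene Mboat7 had a relative signal of 4.97 for F/F and 4.04 for LKO on chow, and 4.49 for F/F and 3.72 for LKO on HFD. It was lower on both LKO arrays, and the log2 difference was -0.27 on HFD and -0.30 on chow. Where its probe lies relative to the deleted exons was not determined, so the size of this difference is no check of the knockout. For the knockout itself, the paper shows by western blot that the protein was depleted in LKO liver of younger mice. It also reports a strong loss of arachidonic acid-containing phosphatidylinositol there. Hepatocyte markers were bright on all arrays: the summed relative signal of 7 marker genes was 2251 for F/F and 2273 for LKO on chow, and 1781 for F/F and 1527 for LKO on HFD, with Alb as the brightest.

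Signals well above background on every array were found for 8 of the 10 genes. The other 2, Gpnmb and Mmp12, passed on both HFD arrays and not on both chow arrays, so their differences between the diets rest on being bright on HFD and are mostly bounds.

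**Figure D1:**
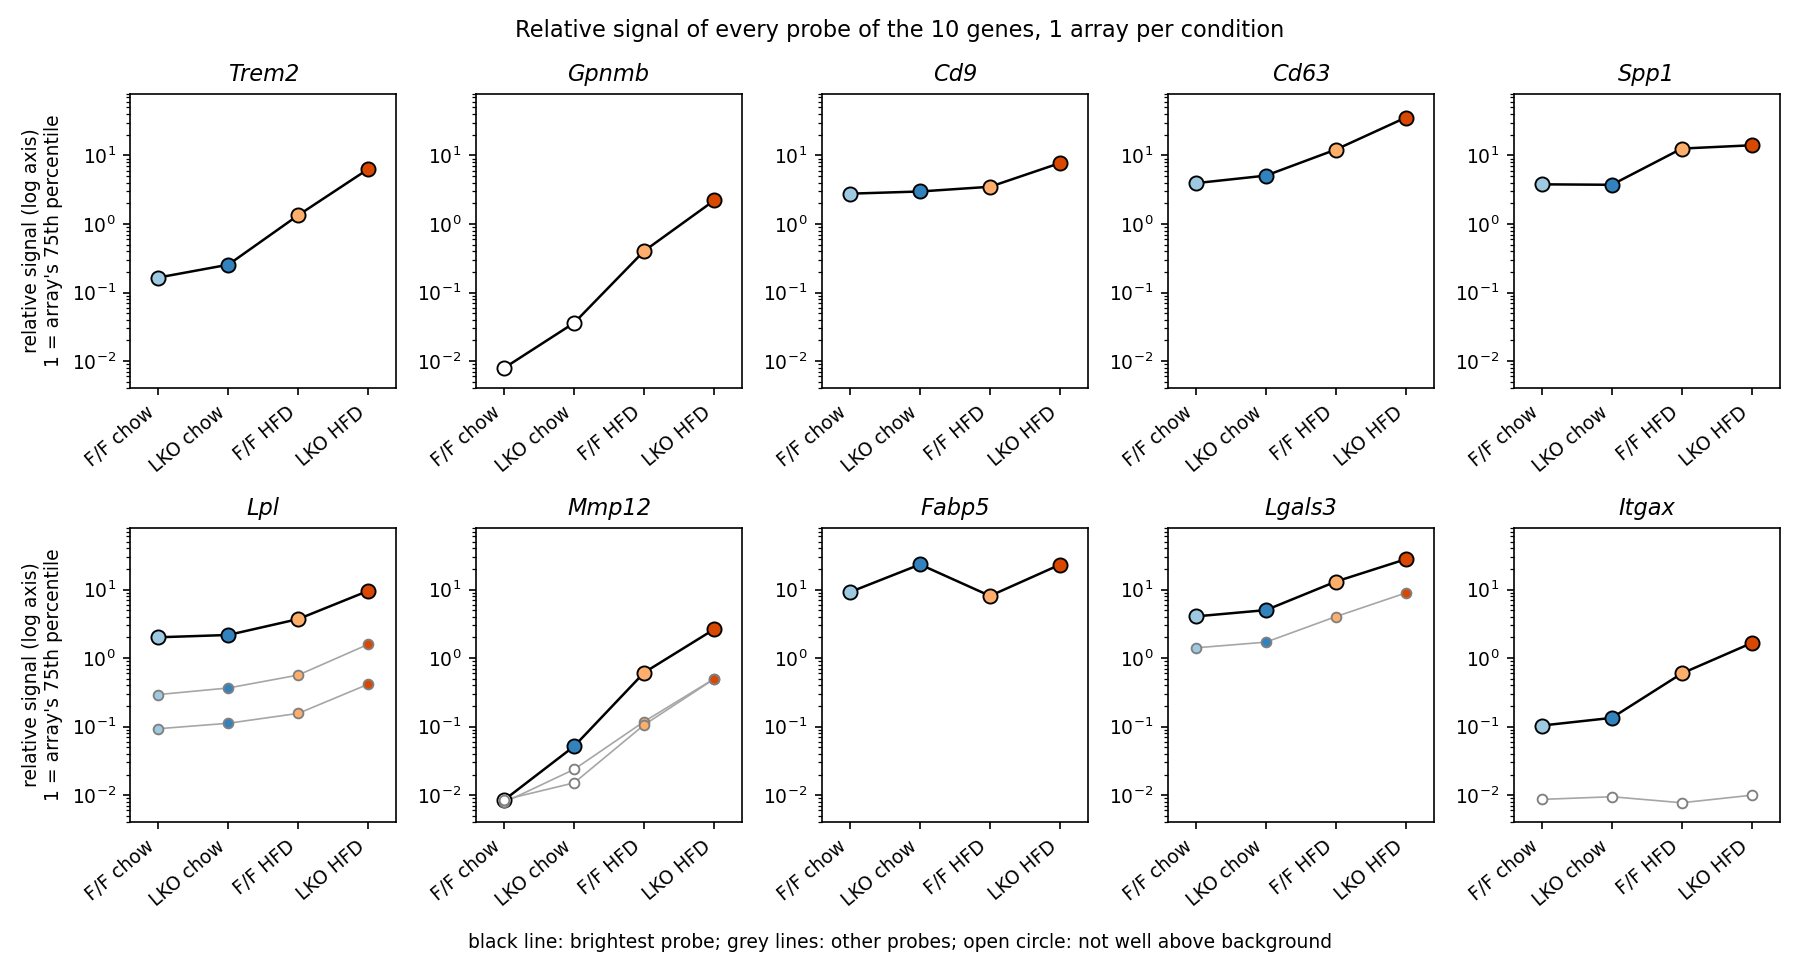
Relative signal (log axis, 1 = the 75th percentile of the array) of every probe of the 10 genes on the 4 arrays, with the brightest probe in black, other probes in grey and signals not well above background as open circles. The LKO HFD array is the highest for 9 of the genes, while Fabp5 is high on both LKO arrays at 23.2 (chow) and 23.1 (HFD).

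TREM2 is the surface receptor of the group and signals through the adaptor TYROBP. Trem2 had a relative signal of 0.166 for F/F and 0.255 for LKO on chow, and 1.34 for F/F and 6.33 for LKO on HFD. Both HFD arrays lay above both chow arrays, and on each diet the LKO array was the higher one. On HFD, Trem2 was 4.71-fold higher in LKO (log2 difference 2.24) and 1.54-fold higher on chow (0.62), which does not pass 2-fold. Between the diets it was 8.11-fold higher on HFD in F/F and 24.8-fold higher in LKO (log2 3.02 and 4.64). With normexp, another background correction, these log2 values were 1.86 and 3.58, and the genotype difference on chow was 0.27. Every step of this order was larger than 2 spot spreads.

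The adaptor and 6 further genes of TREM2 signalling, Tyrobp, Hcst, Syk, Plcg2, Inpp5d, Vav3 and Card9, differed less than Trem2 itself. On HFD, 7 of 7 were higher in LKO by any amount, against 7131 of 15525 over all genes, and Card9 with a bound of 0.03 lay within the spot spread. Of the list, 0 of 7 passed 2-fold, with a median log2 difference of 0.53. Tyrobp differed most, with a relative signal of 8.72 for F/F and 8.23 for LKO on chow, and 12.9 for F/F and 21.4 for LKO on HFD, or 0.73 between the HFD arrays. Among 5 other receptors of the TREM family, 0 passed 2-fold on HFD and the median was 0.47, itself a bound, which turned to -0.04 with normexp and to -0.12 with only genes measured on all 4 arrays. Treml1 had the largest difference upward at 0.65, or 0.07 with normexp, while the brightest probe of Treml2 gave -0.54 and its other probe 1.26. Apoe and Clu, which encode ligands of TREM2, and Adam10 and Adam17, which encode sheddases that cleave it, had a median of -0.02 on HFD, a sign that turned with quantile normalization (0.12), no scaling (0.15), normexp (0.02) and a percentile over well measured probes (0.04). The extremes of these 4 were Adam10 at 0.26 and Apoe at -0.17.

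GPNMB is a transmembrane glycoprotein of lysosomes and phagosomes. Gpnmb had a relative signal of 0.00794 for F/F and 0.0361 for LKO on chow, both not well above background, and 0.404 for F/F and 2.20 for LKO on HFD. It was thus measured on the HFD arrays alone, and the LKO array was the brighter of them. Its genotype difference on HFD, 5.45-fold (log2 2.45), was the largest of the 10 genes, although with normexp background correction Gpnmb at 1.98 and Trem2 at 1.99 came level. With both chow signals near background, no fold is given for the genotypes on chow. Against chow, Gpnmb was at least 11.5-fold higher on HFD in F/F and at least 58.0-fold higher in LKO (log2 3.52 and 5.86). These bounds hold for the background subtraction used here, since normexp gave 1.23 and 3.06, and with no filter the value in F/F was 5.67.

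ITGAX, also called CD11c, is the integrin alpha chain that pairs with the beta2 chain ITGB2 on dendritic cells and some macrophages. Itgax had a relative signal of 0.104 for F/F and 0.134 for LKO on chow, and 0.597 for F/F and 1.66 for LKO on HFD. The levels followed the same order as those of Trem2, with each step above 2 spot spreads, although with normexp the chow step, at 0.18, was not. In LKO it was 2.78-fold higher on HFD (log2 1.48), and the log2 difference on chow was 0.37. The diet difference was 5.75-fold in F/F and 12.4-fold in LKO (log2 2.52 and 3.63), with normexp 1.2 and 2.23. A second Itgax probe was not well above background on any array and has no value of its own. With it in a mean of probes the diet differences were 1.18 and 1.85, and the genotype difference on HFD, at 0.92, no longer passed 2-fold. Of 4 other genes of beta2 integrins, 0 passed 2-fold between the genotypes on HFD, their median was 0.34, in part from a bound, with a range of 0.21 to 0.72 over the alternatives, and 1 of 4 passed with no filter. Itgb2 had the largest difference at 0.85, which passed 2-fold with no scaling (1.01), against -0.27 on chow.

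CD9 and CD63 are tetraspanins, membrane proteins that organise other proteins into patches, and CD63 sits mainly in late endosomes and lysosomes. Cd9 had a relative signal of 2.77 for F/F and 2.98 for LKO on chow, and 3.49 for F/F and 7.74 for LKO on HFD. The LKO HFD array stood apart from the other 3, and the chow arrays differed by 0.11, within 2 spot spreads. Cd9 was 2.22-fold higher in LKO on HFD (log2 1.15). Its signal on HFD was 1.26-fold that on chow in F/F and 2.60-fold in LKO.

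Cd63 is covered by 1 probe printed 10 times on each array. Its mean relative signal was 3.94 for F/F and 5.08 for LKO on chow, and 12.2 for F/F and 35.7 for LKO on HFD. The spots of each array, after those marked as outliers were left out, spanned 3.78 to 4.22, 4.88 to 5.33, 11.9 to 12.9 and 34.8 to 36.9 in that order, so no array overlapped with another. Cd63 was 2.93-fold higher in LKO on HFD (log2 1.55), and on chow the difference was 0.36. The diet difference was 3.09-fold in F/F and 7.03-fold in LKO. Of 7 other tetraspanin genes, 0 passed 2-fold between the genotypes on HFD and their median was 0.26. Cd53 was at 0.66, or 0.33 with normexp, and Cd82 was at -0.15 with its brightest probe, while its other probes lay between -0.14 and 0.16 and its sign turned with no scaling between arrays (0.02).

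**Figure D2:**
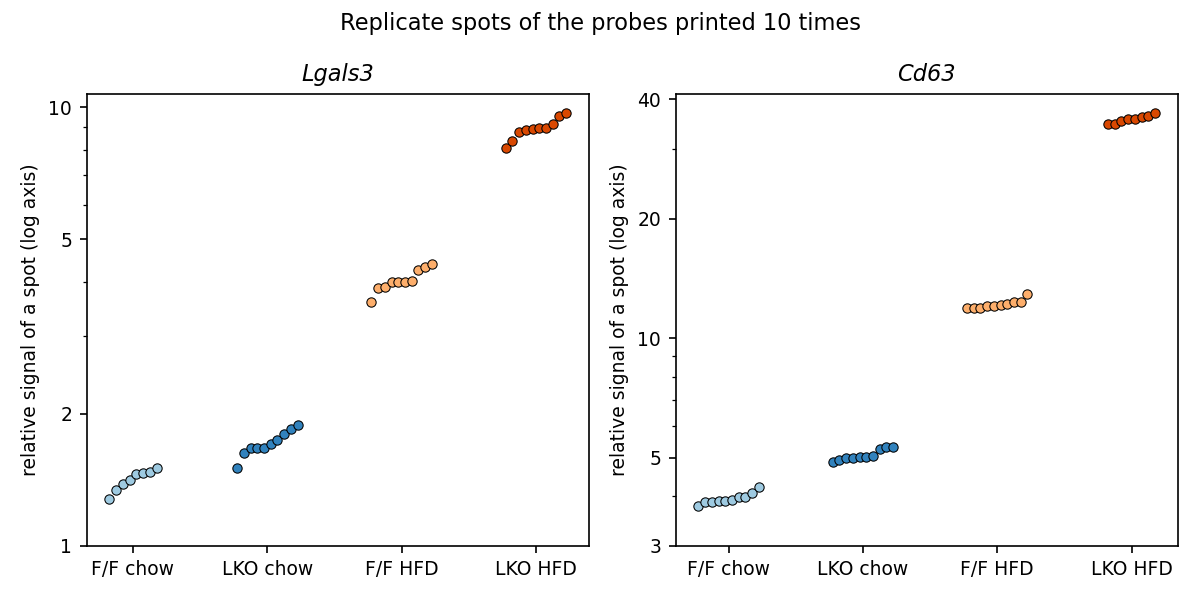
Relative signal (log axis) of single spots of the Cd63 probe and of 1 Lgals3 probe, each printed 10 times per array, without spots marked as outliers, sorted within each array. For Cd63 the LKO HFD spots lie between 34.8 and 36.9 and the F/F HFD spots between 11.9 and 12.9.

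Osteopontin, the product of Spp1, is a secreted phosphoprotein that binds integrins and CD44. Spp1 had a relative signal of 3.79 for F/F and 3.73 for LKO on chow, and 12.6 for F/F and 14.1 for LKO on HFD. The arrays split by diet: both HFD arrays were high, both chow arrays were low, and within each diet the genotypes lay within 2 spot spreads of each other. The genotype difference was 0.16 on HFD and -0.02 on chow. On HFD it went beyond 2 spot spreads under 4 alternatives: normexp (0.29), no scaling (0.33), quantile normalization (0.22) and a percentile over well measured probes (0.22). HFD went with a 3.32-fold higher signal in F/F and a 3.77-fold higher one in LKO. Spp1 was the 1 gene of the 10 that did not pass 2-fold between the genotypes on HFD. Among 8 genes of osteopontin receptors, 0 passed 2-fold on HFD and the median was 0.39, with Itga4 at 0.63, or 0.14 with normexp. All 8 were higher in LKO by any amount, against 7131 of 15525 over all genes, and Itgb1 at 0.03 lay within the spot spread.

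MMP12 is the macrophage metalloelastase, a secreted protease that degrades elastin. The brightest of its 3 probes had a relative signal of 0.00852 for F/F, not well above background, and 0.0518 for LKO on chow, and 0.615 for F/F and 2.63 for LKO on HFD. The signal was lowest on F/F chow and highest on LKO HFD. Mmp12 was 4.28-fold higher in LKO on HFD (log2 2.10) and at least 1.47-fold higher on chow (log2 0.56). The chow value rests on the treatment of dim signals, being 0.22 with normexp and 2.60 with no filter. The other 2 probes were not well above background on chow and gave 2.07 and 2.22 between the HFD arrays. The diet difference was at least 17.5-fold in F/F and 50.7-fold in LKO (log2 4.13 and 5.67). It was smaller with normexp, at 1.54 and 3.07, and with the mean of all probes, at 2.49 and 5.03, and with no filter the value in F/F was 6.17. Of the genes for elastin and the TIMP inhibitors, 4 had a value on HFD, 0 passed 2-fold (1 of 5 with no filter) and the median was 0.29, with the substrate gene Eln at 0.64, which turned to -0.05 with normexp.

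LPL, lipoprotein lipase, frees fatty acids from the triglycerides of lipoproteins. The brightest Lpl probe had a relative signal of 2.01 for F/F and 2.17 for LKO on chow, and 3.71 for F/F and 9.56 for LKO on HFD. The LKO HFD array was the highest, and the chow arrays differed by 0.11 with this probe, within 2 spot spreads, but by 0.32 and 0.26 with the 2 dimmer probes and by 0.23 with the mean of probes, which are beyond. Lpl was 2.58-fold higher in LKO on HFD (log2 1.37), and the dimmer probes gave 1.49 and 1.41. Between the diets it was 1.84-fold higher on HFD in F/F (log2 0.88), below 2-fold, and 4.40-fold higher in LKO. In F/F it passed 2-fold with no scaling between arrays (1.13) and with the deposited table as it stands (1.02). The 12 other genes of the lipoprotein lipase system, which holds its cofactors, inhibitors and related lipases, had a median of -0.24 between the genotypes on HFD. Over the alternatives this median ranged from -0.26 to -0.07, and 0 of 12 passed 2-fold either way as reported. Of these 12, 10 were lower in LKO by any amount, while over all genes 7131 of 15525 were higher. Lipg had the largest difference downward at -0.85, or -0.46 with normexp.

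FABP5, the epidermal fatty acid-binding protein, carries fatty acids through the cytoplasm. Fabp5 had a relative signal of 9.18 for F/F and 23.2 for LKO on chow, and 8.07 for F/F and 23.1 for LKO on HFD. Here the arrays split by genotype: both LKO arrays were high, both F/F arrays were low, and the diets of each genotype lay within 2 spot spreads. Fabp5 was 2.86-fold higher in LKO on HFD (log2 1.52) and 2.53-fold higher on chow (1.34). The difference between the diets was -0.19 in F/F and -0.01 in LKO, and with no scaling between arrays it was 0.06 and 0.46. The reference table also lists a pseudogene copy, Fabp5l2, and whether the probe tells the copies apart was not determined. Of 6 other fatty acid-binding protein genes with a value on HFD, 0 were at least 2-fold higher and 2 were lower in LKO, Fabp2 at -1.10 (-0.93 with no scaling) and Fabp6 with a bound of -1.91. Their median was 0.00, Fabp7 at 0.99 and Fabp3 at 0.96 lay just below 2-fold upward, with 1 gene higher under quantile normalization and 2 with no scaling or a percentile over well measured probes, and Pmp2 was not well above background on any array.

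LGALS3, galectin 3, is a lectin for beta-galactosides that macrophages secrete and that gathers on damaged lysosomes. The brightest Lgals3 probe had a relative signal of 4.06 for F/F and 5.01 for LKO on chow, and 13.1 for F/F and 27.7 for LKO on HFD. Both HFD arrays were above both chow arrays and LKO was the higher on each diet. Lgals3 was 2.12-fold higher in LKO on HFD (log2 1.08), and the chow difference was 0.30. A second probe, printed 10 times per array, gave 1.15 on HFD, and its single spots, each set against the spot at the same position on the other array, gave 1.06 to 1.22. HFD went with a 3.22-fold higher signal in F/F and a 5.53-fold higher one in LKO. A list of 7 other genes held galectins and Lgals3bp, which encodes a binding protein of galectin 3 and no galectin. Of these, 0 passed 2-fold between the genotypes on HFD, with Lgals12 at 0.28 and Lgals8 at -0.34. Their median of 0.12 was the value of Lgals3bp.

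The 4 comparisons of the design share arrays, so their results are not independent of one another, and each is given with the same count over all genes with a value. Between the genotypes on HFD, 9 of 10 genes were at least 2-fold higher in LKO, against 2.36% of 15525 genes. In the same comparison 0 of 10 were at least 2-fold lower, against 1.91% of all genes. The median log2 difference of the 10 genes was 1.5, and that of all genes was -0.03.

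On chow, 1 of 9 genes with a value, Fabp5, was at least 2-fold higher in LKO, against 1.11% of 14978 genes. No gene of the list passed 2-fold downward there (0 of 9), against 1.03% of all genes. The median was 0.36 beside 0.00 over all genes, and 8 of the 9 were higher in LKO by any amount, against 7599 of 14978 genes.

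In F/F mice, 7 of 10 genes were at least 2-fold higher on HFD than on chow, against 5.21% of 15355 genes, and 0 of 10 were lower, against 2.94%. The 3 that did not pass were Cd9, Lpl and Fabp5, and Lpl did pass with no scaling between arrays and with the deposited table as it stands. The median was 1.71, beside -0.02 over all genes. The 7 genes and the median include Gpnmb and Mmp12, both bounds, which have a value here only because they were bright on HFD. Among genes measured on all 4 arrays, 5 of 8 passed, against 602 of 13978, and the median was 1.66.

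In LKO mice, 9 of 10 genes were at least 2-fold higher on HFD, against 8.12% of 15239 genes, and 0 of 10 were lower, against 4.08%. Fabp5 was the exception. The median was 2.64, beside -0.07 over all genes. The 9 genes and the median include Gpnmb, a bound, and Mmp12, whose chow signal was near background. Among genes measured on all 4 arrays, 7 of 8 passed, against 969 of 13978, and the median was 2.30.

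**Figure D3:**
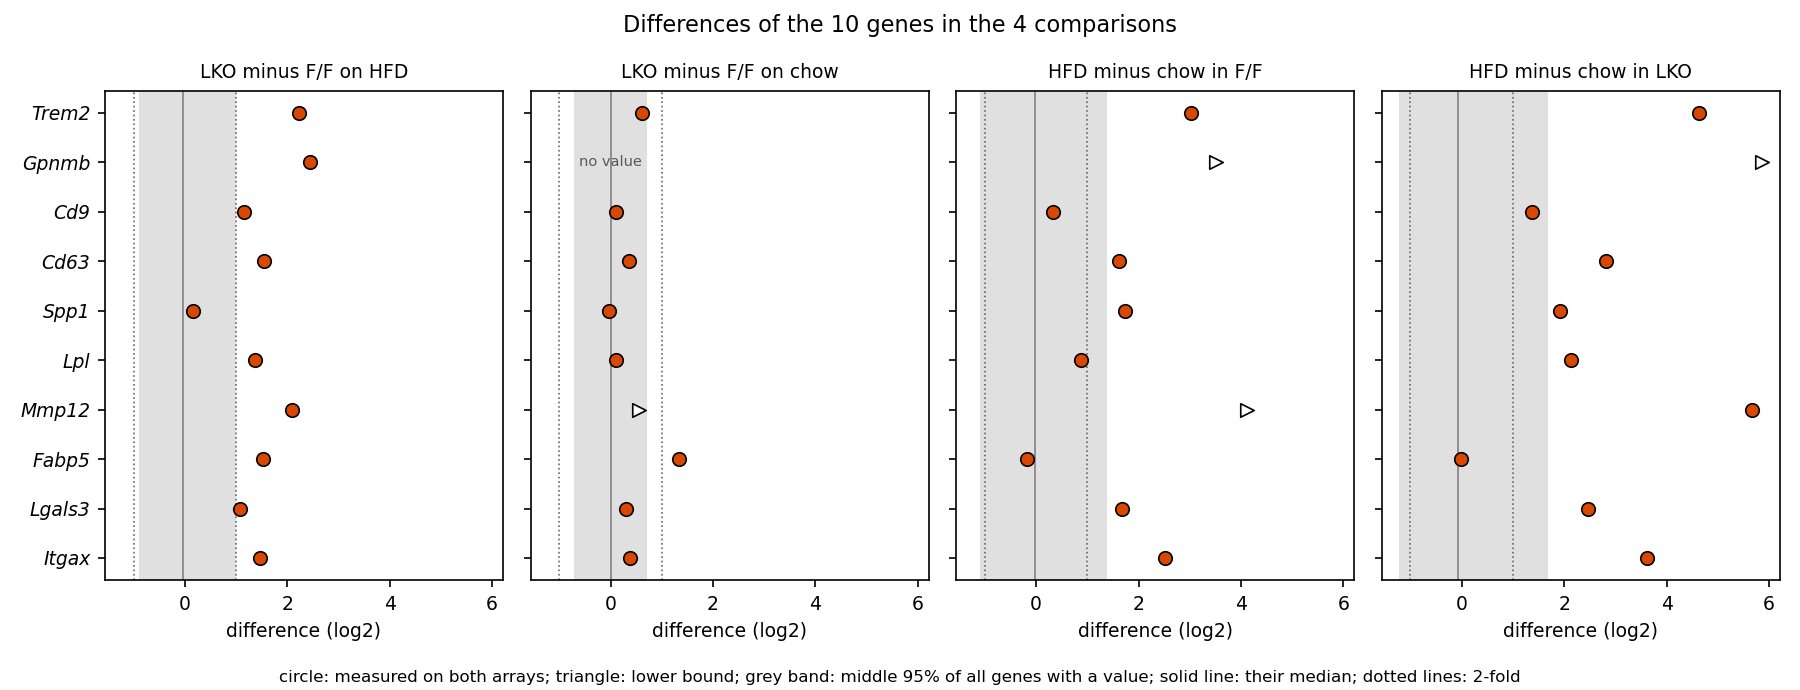
Log2 differences of the 10 genes in the 4 comparisons, with circles for values measured on both arrays, triangles for bounds, a grey band for the middle 95% of all genes with a value and dotted lines at 2-fold. Of the 10 genes, 9 lie past 2-fold between the genotypes on HFD and 1 of 9, Fabp5, on chow.

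The genotype difference on HFD minus that on chow was computed for the 8 genes well above background on all 4 arrays. It was above 0 for 8 of 8 and past 2-fold for 5 of 8 (4 with normexp or the mean of all probes, 6 with no scaling), against 2.43% of 13978 genes measured on all 4 arrays. Their median was 1.07, and that of all genes was -0.05, with 6110 of 13978 above 0. It was largest for Trem2 at 1.61, followed by Lpl at 1.26, Cd63 at 1.19, Itgax at 1.10 and Cd9 at 1.04. Lgals3 had 0.78, while Spp1 and Fabp5 each had 0.18.

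Among themselves the genes showed 3 patterns over the arrays. A rise from F/F to LKO on chow and on to F/F and LKO on HFD, with every step above 2 spot spreads, was found for Trem2, Cd63, Lgals3 and Itgax. These were 4 of the 8 genes measured on all arrays, against 378 of 13978 genes (2.7%). With normexp the chow step of Itgax, at 0.18, was not above 2 spot spreads. Cd9 and Lpl rose likewise, but with the chow arrays within 2 spot spreads, which for Lpl held for its brightest probe alone, and for Gpnmb and Mmp12 a chow signal near background leaves the order on chow without a measured step. Spp1 separated the diets, and its genotypes on HFD lay within 2 spot spreads only under some of the settings. Fabp5 separated the genotypes, and its diets lay within 2 spot spreads except in LKO with no scaling between arrays (0.46).

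The median profile of the 8 genes measured on all arrays, each taken as log2 and centred on its own mean, was -1.05 for F/F and -0.90 for LKO on chow, and 0.42 for F/F and 1.51 for LKO on HFD. Lgals3 lay nearest to it, at a Euclidean distance of 0.18 over the 4 arrays, then Cd63 at 0.46 and Lpl at 0.47. Trem2 at 2.08 and Fabp5 at 2.22 lay farthest away. Profiles were not scaled, so a distance holds both size and shape. Trem2 had the same order of arrays as the median over a wider range, from -2.22 on F/F chow to 3.03 on LKO HFD. Fabp5 had another order. Of 13970 other genes measured on all 4 arrays, the nearest were Myo1f (distance 0.09), Cbr3 (0.13), Grk3 (0.15), Ear10 (0.18) and D17H6S56E-5 (0.18). The next were Arhgap44 (0.21), Ear2 (0.22), Tgfb2 (0.23), Ear1 (0.24) and Mbnl3 (0.27). Myo1f had a relative signal of 0.424 for F/F and 0.467 for LKO on chow, and 1.25 for F/F and 2.45 for LKO on HFD. With normexp, 5 of these 10 genes were again among the nearest 10, and with quantile normalization 9 of 10. The 3 eosinophil-associated ribonuclease genes Ear1, Ear2 and Ear10 are close copies, and whether their probes tell them apart was not determined.

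**Figure D4:**
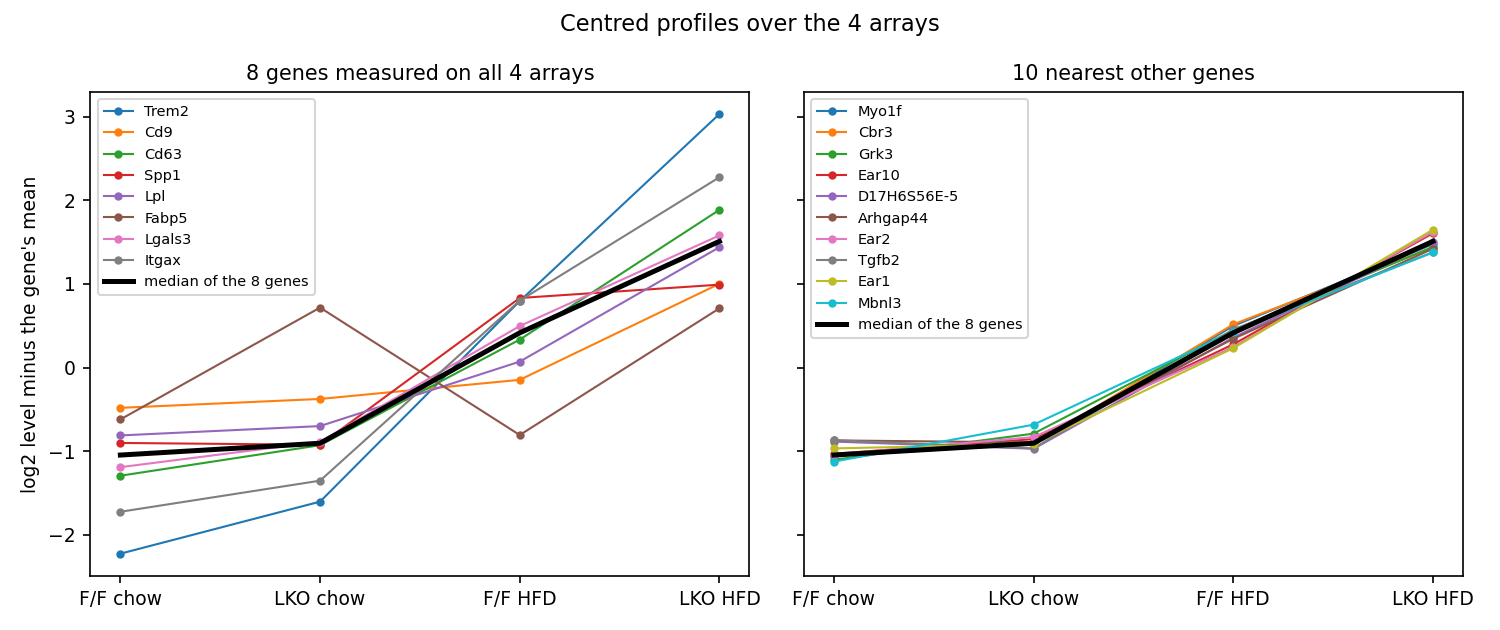
Log2 level minus the mean of the gene over the 4 arrays, for the 8 genes measured on all arrays (left) and for the 10 other genes nearest to their median profile (right), with that median in black. The median runs from -1.05 on F/F chow to 1.51 on LKO HFD.

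Since 9 of 10 genes were at least 2-fold higher in LKO on HFD, the promoters of the genes are shown, read for 4 motifs of factors known from macrophages and lysosomes. RefSeq's promoter table (build GRCm38.p6) gives 300 bases per promoter, most of them before the transcription start and the rest after it, and held 10 promoters of 8 of the genes. Fabp5 and Lpl have none in it. The motifs, searched on both strands, were the E-box CACGTG, the M-box core TCACGTGA (which contains the E-box) of the MiT/TFE factors, the AP-1 motif TGANTCA and the PU.1 core GAGGAAGT. A match is a description of the letters and not a binding site. The 6 promoters with a match are printed 5′ to 3′ on the strand of the gene, in lower case with the match in capitals, and positions count from base 1 of the printed run. The AP-1 motif stood in 4 of 10 promoters (40%), those of Trem2 (chr17:48346151-48346450, plus strand, base 242), Gpnmb (chr6:49036268-49036567, plus strand, base 259), Itgax (chr7:128129300-128129599, plus strand, base 195) and the second Mmp12 promoter (chr9:7347124-7347423, plus strand, base 207).
Trem2: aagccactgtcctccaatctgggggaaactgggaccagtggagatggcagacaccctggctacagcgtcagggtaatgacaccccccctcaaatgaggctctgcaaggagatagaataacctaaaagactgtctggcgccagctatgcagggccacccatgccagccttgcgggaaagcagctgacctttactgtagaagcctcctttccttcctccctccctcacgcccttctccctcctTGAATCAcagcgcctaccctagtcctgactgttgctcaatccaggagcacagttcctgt
Gpnmb: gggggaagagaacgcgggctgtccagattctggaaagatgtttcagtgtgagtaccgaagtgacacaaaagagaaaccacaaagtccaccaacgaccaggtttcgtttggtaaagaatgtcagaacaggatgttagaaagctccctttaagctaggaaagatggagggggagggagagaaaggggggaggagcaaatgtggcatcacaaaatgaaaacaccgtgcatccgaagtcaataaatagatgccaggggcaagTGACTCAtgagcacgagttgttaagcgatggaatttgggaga
Itgax: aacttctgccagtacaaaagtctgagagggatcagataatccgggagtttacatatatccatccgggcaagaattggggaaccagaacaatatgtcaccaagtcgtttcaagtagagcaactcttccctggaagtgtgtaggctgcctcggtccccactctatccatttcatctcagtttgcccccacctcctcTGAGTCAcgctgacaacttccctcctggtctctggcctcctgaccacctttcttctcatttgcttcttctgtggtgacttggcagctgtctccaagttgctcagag
Mmp12 promoter 2: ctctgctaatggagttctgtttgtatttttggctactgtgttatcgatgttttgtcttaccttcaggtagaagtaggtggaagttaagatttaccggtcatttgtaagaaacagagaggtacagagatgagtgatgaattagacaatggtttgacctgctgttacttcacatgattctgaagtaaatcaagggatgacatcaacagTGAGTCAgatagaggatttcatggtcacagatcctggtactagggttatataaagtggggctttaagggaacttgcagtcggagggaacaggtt

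Over all 32851 promoters of the table, 7.81% held the AP-1 motif. The PU.1 core stood in 2 of the 10 promoters (20%), against 3.20% of all. These were the first Spp1 promoter (chr5:104434861-104435160, plus strand, base 138) and the first Mmp12 promoter (chr9:7344147-7344446, plus strand, base 163), where the capitals show the motif as it reads on the opposite strand.
Spp1 promoter 1: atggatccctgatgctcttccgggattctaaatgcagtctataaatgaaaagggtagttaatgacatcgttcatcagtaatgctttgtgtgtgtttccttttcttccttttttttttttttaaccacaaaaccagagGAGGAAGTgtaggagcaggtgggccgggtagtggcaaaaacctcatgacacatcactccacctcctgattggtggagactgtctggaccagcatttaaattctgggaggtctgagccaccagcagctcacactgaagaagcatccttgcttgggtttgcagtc
Mmp12 promoter 1: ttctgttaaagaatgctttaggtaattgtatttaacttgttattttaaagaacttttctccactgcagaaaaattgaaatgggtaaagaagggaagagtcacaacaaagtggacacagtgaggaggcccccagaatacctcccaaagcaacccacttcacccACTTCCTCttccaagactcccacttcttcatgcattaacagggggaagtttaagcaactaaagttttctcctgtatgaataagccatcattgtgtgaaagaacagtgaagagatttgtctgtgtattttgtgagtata

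The E-box was found in 0 of the 10 promoters and in 7.15% of all, and the M-box core in 0 of the 10 and in 0.974% of all. The promoters of Cd9, Cd63 and Lgals3 and the second one of Spp1 held none of the 4 motifs. The genes of the MiT/TFE factors themselves, 4 in number, had a median log2 difference of 0.24 between the genotypes on HFD, 0 of 4 passed 2-fold, and Tfec was the highest at 0.64, or 0.22 with normexp.

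A list of 22 other genes described in lipid-associated macrophages, such as cathepsins and lysosomal membrane proteins, differed less than the 10 genes. On HFD, 2 of 22 were at least 2-fold higher in LKO and 0 were lower, with a median of 0.49, beside 1.5 for the 10 genes. Atp6v0d2, a subunit of the proton pump of lysosomes, had the largest difference at 1.43, or 0.87 with normexp, the other call, Dcstamp, was a bound of 1.09, and the count ran from 0 of 22 with normexp to 5 of 22 with no scaling. The lowest was Lamp2 at -0.07, which turned to 0.10 with no scaling between arrays.

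In bulk liver RNA, a change in the number of cells of a type and a change in the RNA per cell cannot be told apart. Nor can the signal of any of the 10 genes be assigned to macrophages rather than to other cells of the liver. The summed relative signal of general macrophage markers was 40.7 for F/F and 38.7 for LKO on chow, and 54.5 for F/F and 74.2 for LKO on HFD. All 9 markers were measured on every array, and 9 of 9 were higher in LKO on HFD by any amount, against 7131 of 15525 over all genes. Of the markers, 1 of 9, Fcgr1 at 1.06, passed 2-fold, a count that ran from 0 with normexp (Fcgr1 0.73) to 4 with no scaling. Their median was 0.48, and the brightest, Csf1r, was at 0.36. On chow the median of these markers was -0.04, beside 0.36 for the 10 genes, of which Fabp5 had 1.34. Which cells carried the signal of the 10 genes was not tested. Without Csf1r the sum was 17.7, 16.9, 25.8 and 37.4. The sum of the 10 genes on the same arrays, in the same order, was 26.0, 42.6, 56.1 and 131, with Fabp5 as the brightest, and without Fabp5 it was 16.9, 19.4, 48.0 and 108.

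Kupffer cell markers summed, in that order, to 89.7, 84.7, 114 and 139. All 7 were measured on every array and their median on HFD was 0.31, with the brightest, Cd5l, at 0.68 and Vsig4 highest at 0.69. Without Cd5l the sum was 51.2, 43.4, 50.9 and 38.5, lowest on LKO HFD, and without Marco, the next brightest, as well it was 20.3, 22.4, 24.7 and 30.2, highest on LKO HFD. On HFD 3 of 7 were lower in LKO, Marco at -1.64, the only one past 2-fold, and Timd4 at -0.95 and Cd163 at -0.65, both named after their values were seen. Monocyte markers had a median of 0.41 on HFD, with 0 of 6 past 2-fold and Ccr2 highest at 0.95, which was 0.38 with normexp and passed 2-fold with no scaling (1.12) and with a percentile over well measured probes (1.01). Their sum of 600, 572, 411 and 330 was mostly Ms4a4c (-0.35), whose probe, like that of Siglech below, was far brighter than the other markers of its list and was not checked for specificity. Without Ms4a4c the sum was 7.63, 7.92, 13.2 and 17.5. Dendritic cell markers had a median of 0.54 on HFD (0.16 with normexp) and -0.30 on chow, with 1 of 8 past 2-fold on HFD, Flt3 at 1.08, which fell to 0.32 with normexp, and Xcr1 not well above background on any array. Their sum was 68.8, 71.3, 57.7 and 55.5, and without the brightest, Siglech (-0.07, or 0.10 with no scaling), it was 0.796, 0.680, 1.10 and 1.58. The part of these cell types in the differences of the 10 genes was not tested.

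Stellate cell markers summed to 79.4, 84.9, 113 and 135 in the same order of arrays. All 12 were higher in LKO by any amount on HFD, against 7131 of 15525 over all genes, and also on chow, against 7599 of 14978. On HFD 0 of 12 passed 2-fold and the median was 0.41, beside 0.17 on chow. Lum was highest on HFD at 0.65 and the brightest, Dcn, was at 0.21, without which the sum was 18.8, 21.2, 35.0 and 45.0. Markers of the exocrine pancreas summed to 24.1, 14.3, 12.8 and 47.3, the highest sum being on LKO HFD as for 9 of the 10 genes. On HFD, 8 of 9 were at least 2-fold higher in LKO, with a median of 1.74 (1.25 with normexp), against -0.92 on chow. Without Amy2a5, the brightest, the sum was 11.6, 5.93, 6.90 and 23.0. Amy2a5 was at 2.04 with its brightest probe, at -0.10 with its other probe and at 0.97 with the mean of both, where 7 of 9 passed. The part of either list in the differences of the 10 genes was not tested.

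**Figure D5:**
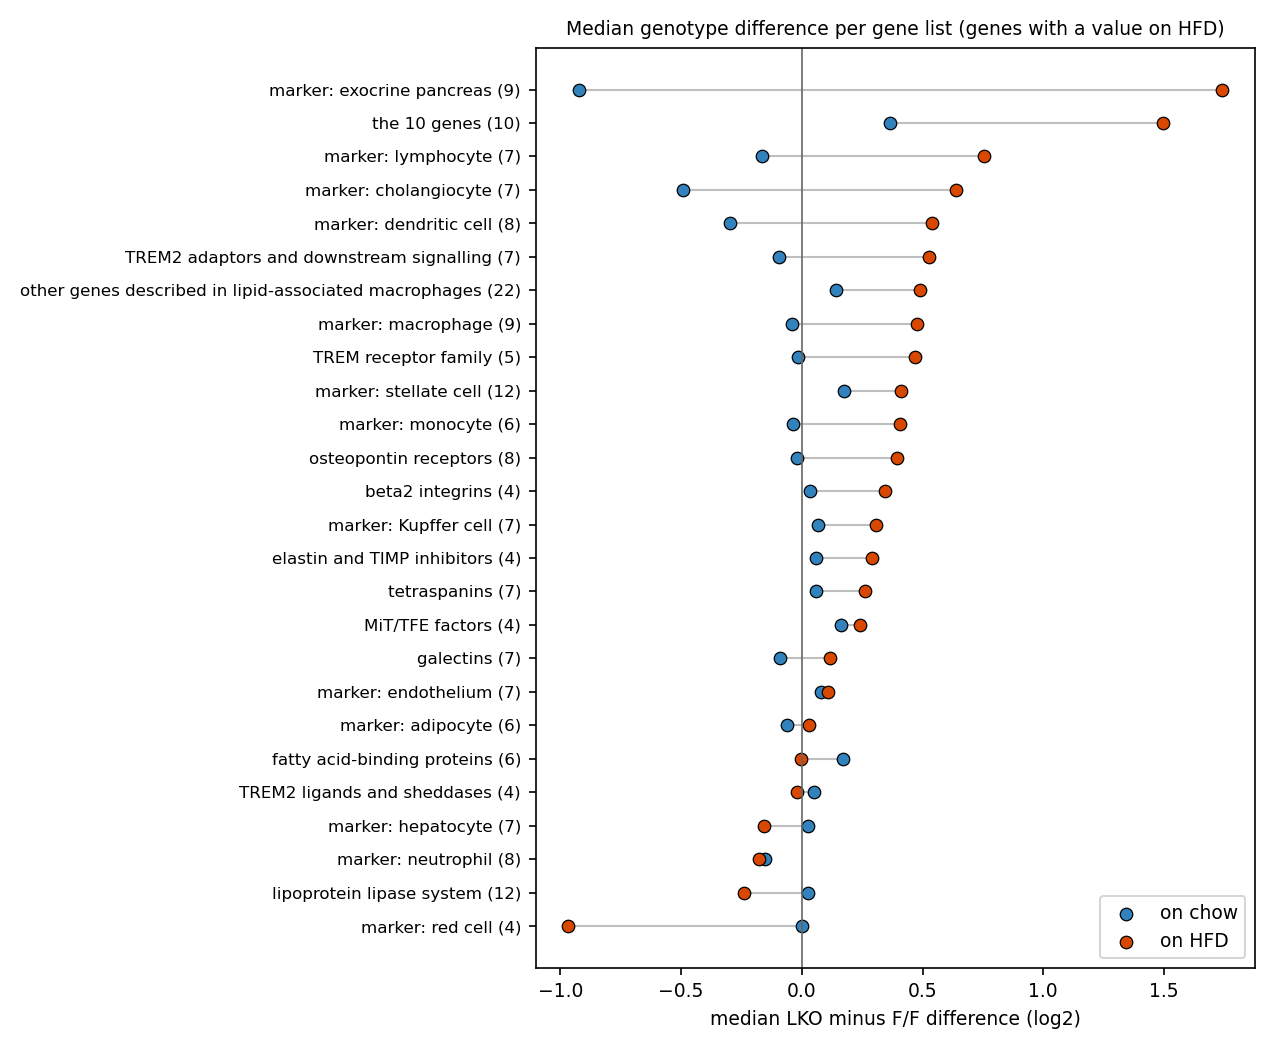
Median log2 difference between LKO and F/F for the 10 genes and for 25 other gene lists, on HFD (orange) and on chow (blue), with the number of genes that have a value on HFD in brackets. The 10 genes have 1.5 on HFD and 0.36 on chow, and the exocrine pancreas markers have 1.74 and -0.92.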

How the data were processed

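RNA from whole liver was hybridised to 4 Agilent arrays of 1 colour, 1 for each genotype and diet. The authors deposited spot intensity values from Agilent Feature Extraction 12.0.3.1, after background subtraction, with its marks for outlier, saturated and well measured spots, and a table of values that multiplies each array by 1 factor (2.60 for F/F and 2.63 for LKO on chow, 2.41 and 2.10 on HFD, with medians of 34.5, 33.2, 36.1 and 36.0), whose origin is not given in the sources used here. Each processed signal was divided by the 75th percentile of its array and taken as log2 (Python 3.11.15, pandas 2.3.3, numpy 2.4.6, matplotlib 3.10.9), outlier spots were left out, and spots of a probe were averaged. Of 56605 probes, 33762 (59.6%) matched a gene of the RefSeq table (GRCm38.p6) by accession.

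Named genes were all 10 members, the largest rise and fall in LKO on HFD of each of 25 other lists of pathways, gene families and cell types, the brightest gene of each marker list, and the 10 genes nearest to the median profile. The members and lists were chosen with earlier results of these data known. Some named genes are not reported here.

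Alternatives were normexp (limma 3.58.1, R 4.3.3, offset 50, on the median spot signal, since the files have no mean signal), quantile normalization, other spots behind the percentile, the deposited table, the mean of all probes, no filter, a filter that keeps genes measured on all 4 arrays, and 1.5-fold. The steps were tested on simulated data.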

Additional observations from a re-analysis of the deposited data

Results flagged for a closer look

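Some results had opposite signs in the comparisons of the 2 genotypes or of the 2 diets, and since each condition has 1 array none of these contrasts was tested. Of the 10 lipid-associated macrophage genes, Gpnmb has no genotype value on chow. Among the other 9, 0 had opposite genotype differences on the diets beyond the spot spread.

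A contrast is given where both values were larger in size than the spot spread, taken here before rounding as 0.096. By this rule 4 of 26 lists had a positive median log2 difference between LKO and F/F on HFD and a negative one on chow. The dendritic cell markers had 0.54 on HFD and -0.30 on chow, and the cholangiocyte markers 0.64 and -0.49, the latter in part from a bound. The lymphocyte markers had 0.76, itself a bound, on HFD and -0.16 on chow. The exocrine pancreas markers had 1.74 and -0.92, and their median difference between the diets was 2.07 in LKO and -0.73 in F/F. With normexp 1 of these 4 contrasts, that of the exocrine pancreas, met the rule. Its medians were then 1.25 on HFD and -0.60 on chow, against 0.16 and -0.00 for dendritic cells, 0.07 and -0.10 for cholangiocytes, and 0.13 and -0.06 for lymphocytes.

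Of 62 named genes outside the 10, 15 had opposite signs on the diets by the same rule, of which 9 met it with normexp. Many of the 62 were named as the extremes of their lists on HFD. The rule was not counted over all genes, so the 15 have no share beside them. Lipg, Lgals12, Ccr2, Muc1, Klrb1c and Tgfb2 did not. Lgals8 did not meet it with quantile normalization, a percentile over well measured probes, no scaling or the deposited table as it stands, Tgfb2 not with quantile normalization, and Lgals12 not with the mean of all probes. Among immune cell genes, Itgb2 had 0.85 on HFD and -0.27 on chow, Fcgr1 1.06 and -0.27, Ccr2 0.95 and a bound of -0.75, Flt3 1.08 and -0.65, and Klrb1c 1.08 and -0.46. The other Klrb1c probe gave 0.05 on HFD. Among epithelial genes, Muc1 had 1.13 on HFD and a bound of -0.82 on chow, Krt19 0.64 and -0.33, and Amy2a5 2.04 and -0.58, with -0.10 from the other Amy2a5 probe on HFD. Among other genes, Lipg had -0.85 on HFD and 0.28 on chow, Fabp2 -1.10 and 0.38, Cidec -0.50 and 1.28, and Retn 0.92 (0.11 with normexp) and -0.30. Lgals12 had 0.28 and -0.42, Lgals8 -0.34 and 0.11, and Tgfb2 0.92 and -0.10, with 0.02 from the other Tgfb2 probe on HFD.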

How the results depend on the processing

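No paired analysis was possible because each condition has 1 array. Of 39 differences of single members, 37 kept their sign under every alternative. The 2 others were those of Fabp5 between the diets, which ranged from -0.19 to 0.06 in F/F and from -0.01 to 0.46 in LKO. Of 343 recomputed values of single members, 263 moved by less than the spot spread, 80 by more, and 0 reversed a called direction. The 263 include values that could not move, since some settings return a measured difference unchanged by construction. These are the deposited table scaled by its own percentile, no filter, and the filter for genes measured on every array. The mean of all probes likewise leaves genes with 1 probe unchanged. The 263 are therefore no measure of robustness. Signals near background limit Gpnmb and Mmp12 on chow, and spots not well above background had a spot SD of 0.65 (log2), from 10 probes.

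With no scaling between arrays, chosen after seeing the data, the median member difference was 1.66 between the genotypes on HFD, 1.96 between the diets in F/F and 3.11 in LKO, and the difference of the genotype differences was 1.30. That setting moved the median of all genes to 0.13, 0.22 and 0.39 in the first 3 of these. All genes higher and lower were then 601 and 215 (366 and 296 as reported), 1388 and 278 (800 and 452), and 2565 and 226 (1238 and 621). The deposited table as it stands, also chosen after seeing the data, gave 1.85 for the diets in F/F and 2.79 in LKO, with 1075 and 337 and with 1549 and 445 genes higher and lower, and an all-gene median of 0.11 in F/F. Normexp gave 0.22 for the genotypes on chow, 1.39 for the diets in F/F and 2.33 in LKO. The mean of all probes gave 1.61 for the diets in F/F, 2.24 in LKO and 0.93 for the difference of the genotype differences. For the diets in LKO, quantile normalization gave 2.74, and keeping only genes measured on all 4 arrays gave 2.30. The number of members at least 2-fold higher in LKO on chow was 3 with no filter and 2 at 1.5-fold, against 1. On HFD it was 8 with the mean of all probes, where Itgax, with its dim probe in the mean, had 0.92, 7 of 8 with only genes measured on all 4 arrays, and 9 otherwise. With no scaling, a measured difference moves by the log2 ratio of the 75th percentiles of the 2 arrays. These were signals of 222 for F/F and 213 for LKO on chow, and 263 and 296 on HFD. The filter for all 4 arrays leaves out Gpnmb and Mmp12. Why the percentiles differ, and what lies behind the shifts with normexp, was not tested. Between the diets in F/F the number of members higher was 8 at 1.5-fold, against 7. As Lpl also passed 2-fold, it was 8 with no scaling and with the deposited table as it stands. With only genes measured on all 4 arrays it was 5 of 8. The number of members lower was 0 under every alternative.

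Over all genes, those higher and lower between the genotypes on HFD were 94 and 85 with normexp and 996 and 889 with no filter. On chow they were 20 and 19, and 672 and 806, against 167 and 154. Between the diets in F/F they were 211 and 148, and 1366 and 1351, and in LKO 428 and 240, and 1912 and 1508.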

Other observations

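Markers of further cell types were summed on the same arrays, given for F/F and LKO on chow and then for F/F and LKO on HFD, and their part in the differences of the 10 genes was not tested. Cholangiocyte markers summed to 1.48, 1.02, 1.13 and 1.67. On HFD, 1 of 7 was at least 2-fold higher in LKO, Muc1 at 1.13, which fell to 0.22 with normexp, and the count ran from 0 to 3 over the alternatives, the lowest was Cftr at -0.28, and the brightest was Krt19, without which the sum was 1.21, 0.796, 0.713 and 1.02. Lymphocyte markers summed to 2.77, 2.48, 2.41 and 3.38, and 2 of 7 were at least 2-fold higher in LKO on HFD, 0 of 7 with normexp and 3 of 7 with no scaling. Their brightest, Cd3e, had a log2 difference of 0.07, without it the sum was 1.04, 0.866, 1.13 and 2.04, and Cd79a was not well above background on any array.

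Neutrophil markers summed to 74.4, 67.4, 67.2 and 55.0, and to 22.3, 12.3, 23.4 and 15.0 without Csf3r, whose probe was the brightest of the list and was not checked for specificity, with a median of -0.18 on HFD and 0 of 8 past 2-fold. Mpo was the highest at 0.65 (0.06 with normexp), S100a9 the lowest at -0.74, and Csf3r was at -0.13 (0.03 with no scaling). Ngp was not well above background on any array. On chow, 2 of 8 neutrophil markers were at least 2-fold lower in LKO, against 1.03% of all genes. Endothelial markers summed to 41.6, 43.2, 50.1 and 50.04, or 13.8, 14.5, 19.8 and 21.6 without the brightest, Clec4g, and had a median of 0.11, with Lyve1 at 0.48, Kdr at -0.18 and Clec4g at -0.09 (0.08 with no scaling).

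Adipocyte markers summed to 25.4, 46.3, 89.2 and 58.5, or 14.0, 18.6, 32.8 and 18.8 without the brightest, Cidec, and had a median of 0.03 on HFD, which turned to -0.05 with normexp and to -0.32 with no filter. Among them 1 of 6, Cfd at -3.90, was at least 2-fold lower in LKO on HFD. Red cell markers summed to 97.0, 95.8, 179 and 90.6, with Hba-a1 as the brightest at -0.98, and without it to 27.4, 27.3, 27.5 and 14.2. All 4 with a value were lower in LKO on HFD, from Hbb-b1 at -1.02 to Alas2 at -0.94, with a median of -0.97. Over all genes, 7131 of 15525 were higher in that comparison.

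The hepatocyte markers had a median of -0.16 on HFD, or 0.01 with no scaling between arrays, and 0 of 7 passed 2-fold. Cyp3a11 was the highest at 0.82 and Pck1 the lowest at -0.49, while Alb was at -0.16, which turned to 0.12 with quantile normalization and to 0.01 with no scaling. The symbol Tf, listed as an eighth hepatocyte marker, was not matched. Among the named genes other than the members, 17 had more than 1 measured probe. Of these 17, 14 had probes of 1 sign on HFD, and Treml2, Cd82 and Amy2a5 had probes of both signs. The galectin gene Lgals1, named here after its value was seen, was at 1.18 between the genotypes on chow and at 0.20 on HFD.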
